A study of Komagataella pastoris with 12 samples.

Results

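The genes described here were the 67 cell cycle, spindle and cytokinesis genes of the methylotrophic yeast Komagataella phaffii, chosen from 5080 transcripts by words in the gene description alone (cell cycle, mitosis or mitotic, spindle, kinetochore, septin, cytokinesis, cohesin, anaphase or cyclin, leaving out meiosis, mating, sporulation, ubiquitin, DNA repair or replication and cyclophilin). No measured value entered the choice. Of the 67, 3 were matched only because "recycling" holds the letters of "cyclin", namely a mitochondrial ribosome recycling factor, a spliceosome recycling factor and an F-box protein of membrane protein recycling. They were kept in the counts over all 67 genes and left out of the role lists, which hold the other 64. Of the 67 genes, 20 lay on chromosome 1, 16 on chromosome 2, 18 on chromosome 3 and 13 on chromosome 4. Gene identifiers and descriptions are those of the deposited table, and coordinates are in the assembly of that table, whose name was not given in the sources used here.

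RNA was sequenced from the evolved thermotolerant strain G14 and its parent, each grown in YPD medium to the logarithmic phase at 37 or 30 °C, giving the groups G14_37, G14_30, Parent_37 and Parent_30 with 3 biological replicates each. The parent was a recombinant GS115 strain that secretes a recombinant lipase, and its libraries carry the genotype label wild type. G14 is 1 isolate, labelled evolved, obtained from the parent by plasma mutagenesis followed by stepwise adaptation to heat, so it carries the lipase too and stands for 1 clone. The labels name the organism Komagataella pastoris, the older name under which GS115 was classified.

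In budding yeasts, cyclins bind and activate a cyclin-dependent kinase, with G1 cyclins acting at the commitment to division and B-type cyclins acting in DNA replication and mitosis. Chromosomes attach to spindle microtubules through the kinetochore and are held in pairs by cohesin until the anaphase-promoting complex/cyclosome (APC/C), a ubiquitin ligase, starts their separation. The mitotic exit network then switches the kinase off, and septins and an actomyosin ring at the bud neck carry out cytokinesis. The roles given below for single genes follow the description in the table and are known mainly from Saccharomyces cerevisiae. In RNA from a whole culture, a larger share of cells in 1 phase and more RNA per cell in that phase cannot be told apart.

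Each library held 13428637 to 22047040 fragments on genes, and every cell cycle gene had at least 114 fragments in every library. Levels are FPKM, fragments per kilobase of transcript, multiplied by a scaling factor for each library. The median ratio of a library to the mean over libraries, across transcripts, was 0.999 in every library. The FPKM sums differed, from 832036 in G14_37 replicate 1 to 1.19e+06 in Parent_30 replicate 1. On this scale the median of all transcripts is held near 0 in each comparison. Some features of the libraries touch the results below. The lowest value in the table was 2.49 to 5.21 FPKM in the 3 Parent_37 libraries and at most 0.799 FPKM in the other 9. The 1st percentile of all transcripts was 12 to 12.4 FPKM in Parent_37 and 5.52 to 8.37 FPKM in the other 9. The lowest value of a cell cycle gene was not raised, at 7.60 to 7.64 FPKM in Parent_37 and 7.92 to 9.75 FPKM in the other 9. Replicate 1 of G14_37 stood apart from its group, with correlations of 0.88 and 0.863 with replicates 2 and 3 across genes, against 0.959 between those 2 and 0.977 to 0.996 within the other groups. Values without it are given beside the main counts that change. Fold changes were fitted with limma on log2(FPKM + 1), and a gene was called upregulated or downregulated where its adjusted p was under 0.05 and its log2 fold change lay beyond 1 in either direction, the thresholds of the study. The lowest mean level of a cell cycle gene was 8.73 FPKM, that of the dynein heavy chain PAS_chr2-1_0744.

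In the heat response of G14 (G14_37 vs. G14_30), 0 of the 67 cell cycle genes were called, beside 3.78% of all transcripts (2.22% upregulated and 1.56% downregulated). At an unadjusted p under 0.05, 10 were higher and 9 lower, and limma-voom on the fragment numbers also called 0. At the adjusted p alone, 4 were higher and 4 lower, where 12.1% and 13.2% of all transcripts were. The cell cycle genes had a median log2 fold change of -0.06, beside 0.003 for all transcripts. These counts and the sign of the median rested on single libraries of G14_37. Without replicate 1 there were 8 higher and 3 lower, with a median of 0.10, and without replicate 3 there were 5 higher and 8 lower, with a median of -0.14. Of all transcripts, 11.6% were higher and 12% lower without replicate 1, and 18.3% and 18% without replicate 3. The medians of all transcripts were then 0.008 and -0.001. With the 2 compared groups fitted alone, 0 were higher and 0 lower, beside 0.965% and 0.551% of all transcripts, so each value given below as past the adjusted p in G14_37 vs. G14_30 rests on the spread shared by the 4 groups. Without replicate 3 of G14_37, 2 genes were called downregulated, the G1/S cyclin PAS_FragB_0046 and the Pho85 cyclin PAS_chr2-1_0092.

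In the parent (Parent_37 vs. Parent_30), 3 cell cycle genes were upregulated and 3 downregulated, which is 8.96% of the 67 beside 21.6% of all transcripts. The upregulated genes were the MIND kinetochore component PAS_chr3_0708, the cyclin-like RNA polymerase II holoenzyme component PAS_chr2-2_0194 and the largest APC/C subunit PAS_chr1-4_0020. The downregulated genes were the G1/S cyclin PAS_FragB_0046, the cell separation and checkpoint gene PAS_chr4_0366 and the Ndc80 complex component PAS_chr1-4_0203. By the adjusted p alone, 16 genes were higher and 14 lower, beside 32.9% and 27% of all transcripts. Without replicate 1 of G14_37, which enters this comparison only through the shared spread, 20 were higher and 21 lower. Of all transcripts, 38% and 31.2% were then higher and lower. The median was -0.08, beside 0.04 for all transcripts, and it was -0.26 after the lowest value of each library had been subtracted, 0.003 without replicate 2 of Parent_37 and -0.03 without replicate 3 of Parent_30. In the same order of settings, the median of all transcripts was -0.05, 0.05 and 0.05.

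At 30 °C (G14_30 vs. Parent_30), 3 cell cycle genes were upregulated and 0 downregulated, where 2.87% and 4.49% of all transcripts were (7.36% in either direction). They were the APC/C catalytic core gene PAS_chr3_0293, the exchange factor PAS_chr3_0758 of mitotic exit and the kinase PAS_chr1-4_0363 that activates cyclin-dependent kinases. At an unadjusted p under 0.05, 6 genes were lower, and limma-voom called 0 downregulated. At the adjusted p alone, 22 genes (32.8%) were higher and 4 (5.97%) lower, beside 14.9% and 13.7% of all transcripts. The median was 0.25, with -0.03 for all transcripts, and 47 of the 67 genes had a positive log2 fold change. Leaving out 1 of the 6 libraries of these groups gave 12 to 19 genes higher and 2 to 4 lower, with 12 higher without replicate 2 of G14_30 or replicate 1 of Parent_30, where 10.6% and 10.2% of all transcripts were higher, and 14 without replicate 2 of Parent_30. With the 2 groups fitted alone, 34 were higher and 7 lower, beside 23.3% and 24.4% of all transcripts. Without replicate 1 of G14_37, which enters here only through the shared spread, 29 were higher and 4 lower. Of all transcripts, 20.75% and 20.63% were then higher and lower.

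At 37 °C (G14_37 vs. Parent_37), 9 cell cycle genes were upregulated and 8 downregulated, which is 13.4% and 11.9% of the 67, beside 7.42% and 14.3% of all transcripts. With the adjusted p alone as the criterion, 32 genes (47.8%) were higher and 11 (16.4%) lower, beside 29.4% and 28.1% of all transcripts. The median was 0.44, beside 0.05 for all transcripts. Without replicate 1 of G14_37, 13 genes were upregulated and 5 downregulated, with 42 higher and 12 lower at the adjusted p alone and a median of 0.49. Without replicate 3 of G14_37, 8 were upregulated and 8 downregulated, with 26 higher and 18 lower and a median of 0.28. Of all transcripts, 33.1% were higher and 32% lower without replicate 1, and 29.7% and 28.3% without replicate 3. The medians of all transcripts were then 0.01 and 0.05. The split of calls depended on the scaling. With every library scaled to the same FPKM sum, 19 genes were upregulated and 3 downregulated, where the median of all transcripts was 0.34. After the lowest value of each library had been subtracted, 15 were upregulated and 7 downregulated, where that median was 0.15. At the adjusted p alone, 37 were then higher and 10 lower, beside 35.2% and 25.1% of all transcripts. Both settings thus raised the median of all transcripts too, and the shares of all transcripts called under them are not given here.

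For G14_37 vs. Parent_30, 6 cell cycle genes were upregulated and 1 downregulated, where 5.91% and 7.01% of all transcripts were. At the adjusted p alone, 22 were higher and 7 lower, beside 24.3% and 26% of all transcripts. The median was 0.19, beside -0.01 for all transcripts, and it was 0.28 without replicate 1 of G14_37, with 33 genes higher and 7 lower, and 0.08 without replicate 3, with 20 higher and 9 lower. Of all transcripts, 26.4% were higher and 28.4% lower without replicate 1, and 26% and 27.7% without replicate 3. The medians of all transcripts were then -0.03 and -0.004. The comparisons that share a group also share its 3 libraries. The libraries of the compared groups did not overlap in 24 of the 67 genes for G14_37 vs. G14_30, 46 for Parent_37 vs. Parent_30, 49 for G14_30 vs. Parent_30, 41 for G14_37 vs. Parent_37 and 35 for G14_37 vs. Parent_30, where 42.1%, 76.4%, 59.5%, 58.3% and 57.1% of all transcripts did not overlap.

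Scaling to the same sum moved the median of all transcripts to 0.22 for G14_37 vs. G14_30, 0.16 for Parent_37 vs. Parent_30, 0.15 for G14_30 vs. Parent_30, 0.34 for G14_37 vs. Parent_37 and 0.39 for G14_37 vs. Parent_30. On that scale the medians of the cell cycle genes were 0.16, 0.04, 0.43, 0.73 and 0.59 in the same order of comparisons, which is below the median of all transcripts in both heat responses and above it in the 3 comparisons of G14 with the parent. By the adjusted p alone, 15 genes (22.4%) were then higher and 1 (1.49%) lower for G14_37 vs. G14_30, beside 29.3% and 5.18% of all transcripts. The same counts were 18 (26.9%) higher and 13 (19.4%) lower for Parent_37 vs. Parent_30, beside 37.2% and 20.8%. For G14_30 vs. Parent_30, 32 (47.8%) were higher and 1 (1.49%) lower, beside 24.7% and 7.3%. For G14_37 vs. Parent_37, 40 (59.7%) were higher and 9 (13.4%) lower, beside 45.8% and 19.1%, and for G14_37 vs. Parent_30, 41 (61.2%) were higher and 2 (2.99%) lower, beside 48.5% and 9.59%. On this scale 5 genes were called upregulated and 2 downregulated for Parent_37 vs. Parent_30.

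**Figure D1:**
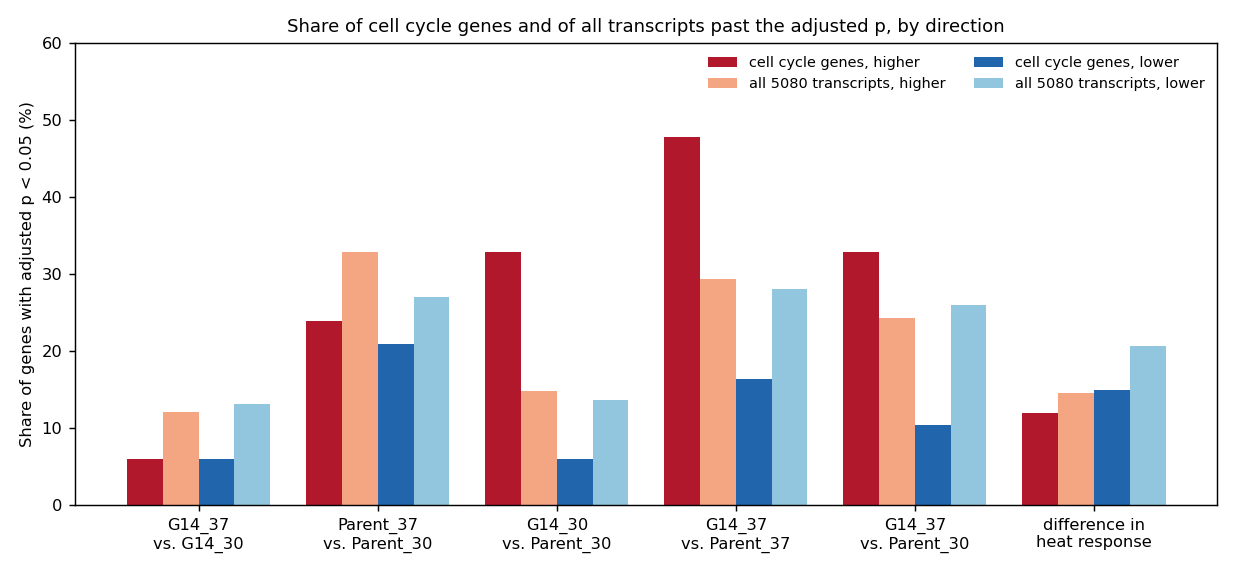
Share (%) of the 67 cell cycle genes (dark bars) and of all transcripts (light bars) with an adjusted p under 0.05, higher (red) and lower (blue), in 5 comparisons and in the difference between the heat responses of the strains. The share of cell cycle genes that were higher was 47.8% for G14_37 vs. Parent_37 and 32.8% for G14_30 vs. Parent_30, beside 29.4% and 14.9% of all transcripts.

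**Figure D2:**
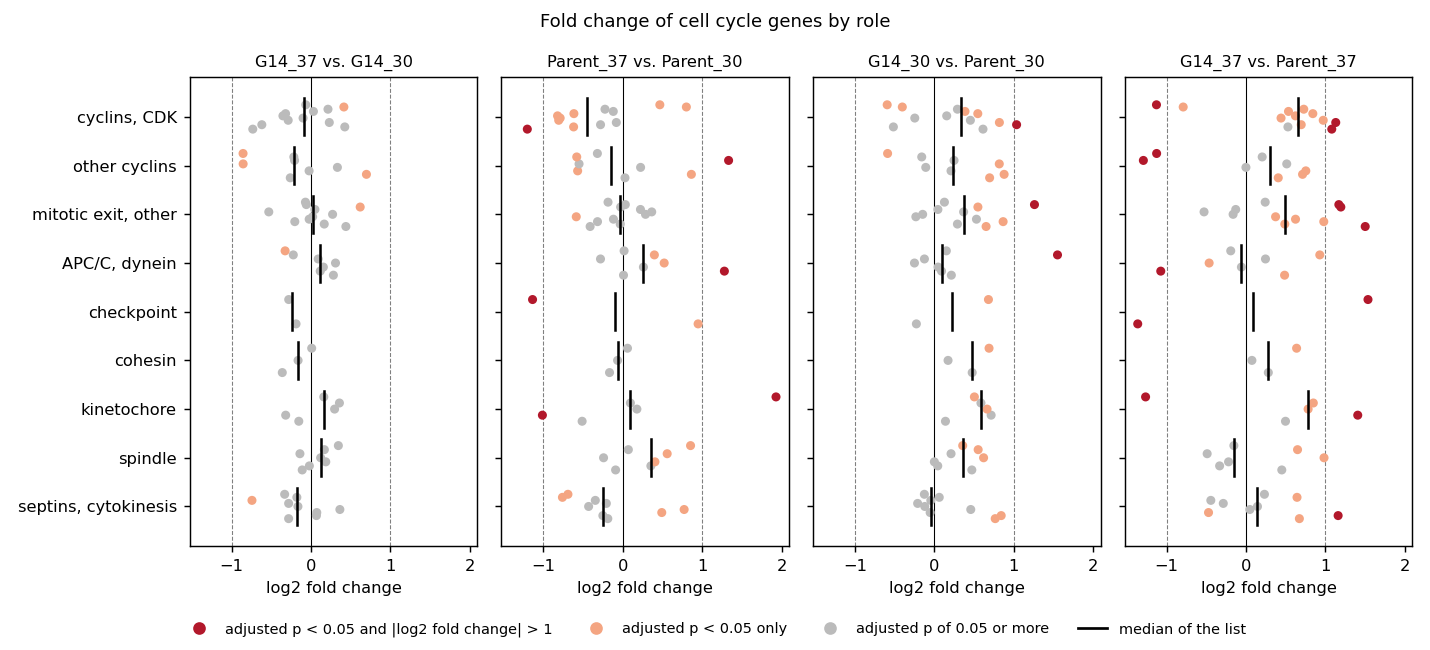
Log2 fold change (horizontal axis, fitted on log2(FPKM + 1)) of the 64 cell cycle genes in 9 role lists (rows) for 4 comparisons (panels). Each point is a gene, red where it was called, orange where only the adjusted p was under 0.05, the black line is the median of a list, and the dashed lines mark a log2 fold change of 1 in either direction. The 12 cyclin and kinase genes had a median of -0.45 for Parent_37 vs. Parent_30 and 0.66 for G14_37 vs. Parent_37.

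Of the 12 cyclin and cyclin-dependent kinase genes, more were lower than higher in the heated parent, and more were higher than lower in heated G14 set against the heated parent. For Parent_37 vs. Parent_30, 2 of 12 were higher and 6 lower at the adjusted p, beside 32.9% and 27% of all transcripts. The median of the 12 was -0.45. For G14_37 vs. Parent_37, 9 of 12 were higher and 2 lower, beside 29.4% and 28.1%, with a median of 0.66. For G14_37 vs. G14_30, 1 was higher and 0 lower, beside 12.1% and 13.2%, with a median of -0.08. The strains also differed in this list at 30 °C, in both directions. There the ratio of mean FPKM, G14_30 to Parent_30, ran from 0.66 for PAS_chr4_0898 to 2.06 for PAS_chr1-4_0363.

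Of the G1 cyclins, PAS_FragB_0046 (chromosome 1, 2743401 to 2744378), annotated as a G1/S cyclin, had 73.4, 148 and 197 FPKM in G14_37, 204, 218 and 224 in G14_30, 59.2, 50.5 and 73.9 in Parent_37 and 128, 144 and 149 in Parent_30. All 3 Parent_37 libraries lay below all Parent_30 libraries, and G14_37 replicate 1 lay within the Parent_37 range. The log2 fold change was -1.20 (SE 0.28, adjusted p = 0.00392) for Parent_37 vs. Parent_30 and 1.08 (SE 0.28, adjusted p = 0.00735) for G14_37 vs. Parent_37, a call lost without replicate 2 or 3 of G14_37 or replicate 2 of Parent_37. PAS_chr1-4_0054 (chromosome 1, 1512257 to 1513333), a G1 cyclin of cell cycle progression, had 270.2, 326 and 282 FPKM in G14_37, 263, 216 and 180 in G14_30, 173, 191 and 249.9 in Parent_37 and 422, 277 and 257 in Parent_30. Its G14_37 libraries lay above its G14_30 libraries and its Parent_37 libraries below its Parent_30 libraries, without reaching a call in either strain, with 0.42 (SE 0.21, adjusted p = 0.155) for G14_37 vs. G14_30 and -0.62 (SE 0.21, adjusted p = 0.026) for Parent_37 vs. Parent_30. The G1 cyclin PAS_FragD_0025, a partner of the kinase Pho85, had a log2 fold change of 0.70 (SE 0.14, adjusted p = 0.00416) for G14_30 vs. Parent_30 and 0.03 (SE 0.14, adjusted p = 0.877) for Parent_37 vs. Parent_30.

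The 3 B-type cyclins, which bring cells through replication and mitosis, were all higher in G14_37 than in Parent_37 at the adjusted p, and also with every library scaled to the same sum. PAS_chr1-4_0440 (chromosome 1, 2219382 to 2220932) had 70.1, 49.6 and 62.9 FPKM in G14_37, 46.7, 56.7 and 50.8 in G14_30, 25.9, 25.7 and 29.6 in Parent_37 and 25.1, 30.3 and 30.8 in Parent_30. Every G14 library lay above every parent library at either temperature, and the log2 fold change was 1.13 (SE 0.14, adjusted p = 4.60e-05) for G14_37 vs. Parent_37, 1.05 (SE 0.14, adjusted p = 1.50e-04) for G14_37 vs. Parent_30 and 0.82 (SE 0.14, adjusted p = 0.00123) for G14_30 vs. Parent_30. The call for G14_37 vs. Parent_30 was lost without replicate 1 of G14_37 or replicate 1 of Parent_30. PAS_chr2-1_0102 had 53.9, 95.3 and 118 FPKM in G14_37, 107, 104 and 100.4 in G14_30, 42.5, 35 and 52.5 in Parent_37 and 64.2, 78 and 85.8 in Parent_30. It was 0.97 (SE 0.25, adjusted p = 0.00609) for G14_37 vs. Parent_37 and -0.81 (SE 0.25, adjusted p = 0.0157) for Parent_37 vs. Parent_30. PAS_chr4_0604 had 91.2, 110.1 and 126 FPKM in G14_37, 89.4, 91.2 and 99.4 in G14_30, 57.9, 70 and 67.8 in Parent_37 and 74.8, 74.2 and 79.3 in Parent_30, with 0.73 (SE 0.12, adjusted p = 4.17e-04) for G14_37 vs. Parent_37 and no overlap between those groups.

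The cyclin-dependent kinase gene PAS_chr3_0214, singled out for its role after its values had been seen, had 131, 156 and 133 FPKM in G14_37, 180.1, 177 and 167 in G14_30, 86.8, 69 and 77.7 in Parent_37 and 129, 114 and 115 in Parent_30. All Parent_37 libraries lay below those of the other groups, and the log2 fold change was -0.61 (SE 0.11, adjusted p = 5.97e-04) for Parent_37 vs. Parent_30 and 0.84 (SE 0.11, adjusted p = 7.22e-05) for G14_37 vs. Parent_37. The kinase subunit and adaptor gene PAS_chr2-2_0298 was also lower in the heated parent and higher in heated G14 than in the heated parent, at -0.82 (SE 0.15, adjusted p = 6.69e-04) for Parent_37 vs. Parent_30 and 0.62 (SE 0.15, adjusted p = 0.00409) for G14_37 vs. Parent_37. PAS_chr1-4_0363, whose product activates cyclin-dependent kinases, had 52.4, 106 and 108 FPKM in G14_37, 132, 129 and 129 in G14_30, 49.5, 46.2 and 60.5 in Parent_37 and 67.7, 61.9 and 59.6 in Parent_30. The 3 G14_30 libraries lay above all others, with 1.04 (SE 0.23, adjusted p = 0.00638) for G14_30 vs. Parent_30, a call lost without replicate 3 of Parent_30.

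Of the others in this list, PAS_chr4_0898, described only as a cyclin, was the most abundant, with 315, 439 and 411 FPKM in G14_37, 385, 407 and 416 in G14_30, 901, 691 and 956 in Parent_37 and 614, 636 and 576 in Parent_30. It was lower in every G14 library than in every parent library, at -1.13 (SE 0.15, adjusted p = 1.08e-04) for G14_37 vs. Parent_37, a call lost without replicate 1 of G14_37 and with libraries scaled to the same sum. PAS_chr4_0694, whose product is described as binding a Pho85 cyclin, had 40.4, 43.7 and 39.1 FPKM in G14_37, 31.8, 32.4 and 27.8 in G14_30, 70.9, 75.6 and 68.9 in Parent_37 and 41.6, 40.1 and 40.5 in Parent_30. It was higher with heat in both strains, at 0.41 (SE 0.08, adjusted p = 0.00887) in G14 and 0.80 (SE 0.08, adjusted p = 1.61e-05) in the parent, and -0.79 (SE 0.08, adjusted p = 1.71e-05) for G14_37 vs. Parent_37, in each case short of a call.

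**Figure D3:**
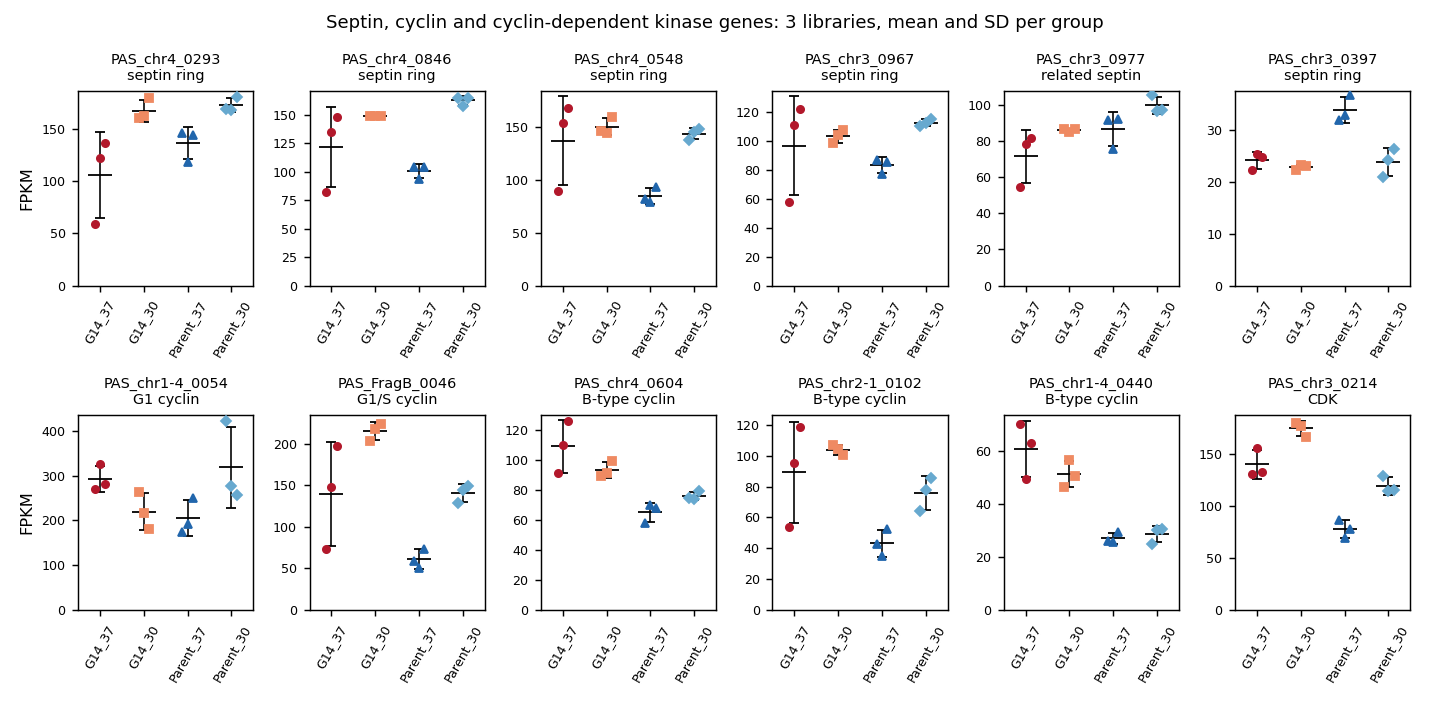
Level (FPKM) of the 6 septin genes (upper row) and of 2 G1 cyclins, 3 B-type cyclins and the cyclin-dependent kinase PAS_chr3_0214 (lower row) in each library, with the mean and SD of 3 libraries per group. The B-type cyclin PAS_chr1-4_0440 had 70.1, 49.6 and 62.9 FPKM in G14_37, against 25.9, 25.7 and 29.6 FPKM in Parent_37.

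Among the 8 cyclin genes of other kinases (Pho85 partners, and cyclins and kinases of transcription), 1 was upregulated in the heated parent, 2 were downregulated in G14_37 vs. Parent_37, and 1 was upregulated and 1 downregulated in G14_37 vs. Parent_30. Of all transcripts, 14% were upregulated in the heated parent and 14.3% downregulated in G14_37 vs. Parent_37. For G14_37 vs. Parent_30, 5.91% were upregulated and 7.01% downregulated. PAS_chr2-2_0194 (chromosome 2, 2021105 to 2021956), a cyclin-like component of the RNA polymerase II holoenzyme, had 32.7, 28.1 and 30.2 FPKM in G14_37, 34.5, 36.3 and 34.6 in G14_30, 67.1, 94.7 and 68.2 in Parent_37 and 29.1, 27.7 and 31.7 in Parent_30. The 3 Parent_37 libraries lay above the other 9, and the log2 fold change was 1.33 (SE 0.13, adjusted p = 8.15e-06) for Parent_37 vs. Parent_30 and -1.29 (SE 0.13, adjusted p = 9.20e-06) for G14_37 vs. Parent_37. Its partner by description, the holoenzyme kinase PAS_chr1-4_0305, was 0.23 (SE 0.14, adjusted p = 0.178) for Parent_37 vs. Parent_30.

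PAS_chr1-1_0097 (chromosome 1, 736360 to 737103), a Pho85 cyclin described as induced by the amino acid starvation factor Gcn4, had 488, 414 and 285 FPKM in G14_37, 241, 258 and 216 in G14_30, 207, 269 and 234 in Parent_37 and 126, 128 and 132 in Parent_30. All libraries of G14 and of Parent_37 lay above those of Parent_30, and the log2 fold change was 1.58 (SE 0.18, adjusted p = 5.34e-05) for G14_37 vs. Parent_30, with 0.70 and 0.86 for the heat responses of G14 and the parent, both past the adjusted p. The neighbouring gene PAS_chr1-1_0096, 362 bases upstream on the same strand, had a log2 fold change of 1.55 for G14_37 vs. Parent_30, and its part in the value was not tested. PAS_chr4_0189 (chromosome 4, 388441 to 389394), a cyclin-like gene whose product binds Pho85 and the most abundant of this list, had 214, 341 and 360.2 FPKM in G14_37, 486, 502 and 640.4 in G14_30, 648, 698 and 607 in Parent_37 and 844, 797 and 793 in Parent_30. All 3 G14_37 libraries lay below those of the other groups. It was -1.45 (SE 0.19, adjusted p = 1.45e-04) for G14_37 vs. Parent_30, -1.13 (SE 0.19, adjusted p = 4.39e-04) for G14_37 vs. Parent_37 and -0.86 (SE 0.19, adjusted p = 0.0113) for G14_37 vs. G14_30. The call for G14_37 vs. Parent_37 was lost without replicate 1 of G14_37 and with libraries scaled to the same sum. PAS_chr2-1_0092, a Pho85 cyclin of entry into the cycle, was -0.85 (SE 0.27, adjusted p = 0.0401) for G14_37 vs. G14_30.

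In the 11 genes of mitotic exit and other cell cycle control, 3 were upregulated in G14_37 vs. Parent_37 and 0 were downregulated, and 7 were higher and 0 lower at the adjusted p, with a median of 0.49. Of all transcripts, 7.42% were upregulated, 14.3% downregulated, 29.4% higher and 28.1% lower there. In the heated parent 0 of the 11 were called, beside 21.6% of all transcripts. At an unadjusted p under 0.05, 2 were higher and 1 lower, and limma-voom called 0. PAS_chr1-1_0273 (chromosome 1, 1079757 to 1081058), a protein tyrosine phosphatase of cell cycle control, had 134, 117 and 175 FPKM in G14_37, 97.5, 104 and 108 in G14_30, 44, 39.8 and 66.7 in Parent_37 and 58.2, 66.5 and 72.1 in Parent_30. Every G14 library lay above every parent library, and the log2 fold change was 1.5 (SE 0.19, adjusted p = 6.64e-05) for G14_37 vs. Parent_37 and 1.09 (SE 0.19, adjusted p = 9.28e-04) for G14_37 vs. Parent_30, where the call was lost without replicate 3 of G14_37.

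PAS_chr3_0758 (chromosome 3, 1444785 to 1448693), a putative guanine nucleotide exchange factor of mitotic exit, had 43.7, 83.4 and 80.1 FPKM in G14_37, 68.5, 79.5 and 61 in G14_30, 25.4, 30.2 and 31.7 in Parent_37 and 24, 30.6 and 30.8 in Parent_30. It was upregulated in G14 in all 3 comparisons with the parent, at 1.26 (SE 0.22, adjusted p = 0.0016) for G14_30 vs. Parent_30, 1.17 (SE 0.22, adjusted p = 9.95e-04) for G14_37 vs. Parent_37 and 1.20 (SE 0.22, adjusted p = 0.00124) for G14_37 vs. Parent_30. The groups of the 2 strains did not overlap, although G14_37 replicate 1 was well below the other G14 libraries. PAS_chr3_0594 (chromosome 3, 1124974 to 1126833), an F-box protein with WD40 repeats of the kind that selects proteins for destruction, had 129.7, 88.7 and 82 FPKM in G14_37, 65.9, 64 and 60.9 in G14_30, 42.5, 38.7 and 46.3 in Parent_37 and 42.6, 42.8 and 44 in Parent_30. G14_37 replicate 1 was its highest library. It was 1.19 (SE 0.15, adjusted p = 4.98e-05) for G14_37 vs. Parent_37 and 1.17 (SE 0.15, adjusted p = 1.17e-04) for G14_37 vs. Parent_30, and both calls were lost without replicate 1 of G14_37 (lowest log2 fold changes of 0.99 and 0.97). PAS_chr1-4_0419, a mitotic exit network component and the most abundant of this list, was 0.62 (SE 0.23, adjusted p = 0.0344) for G14_37 vs. Parent_37, with overlapping libraries.

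**Figure D4:**
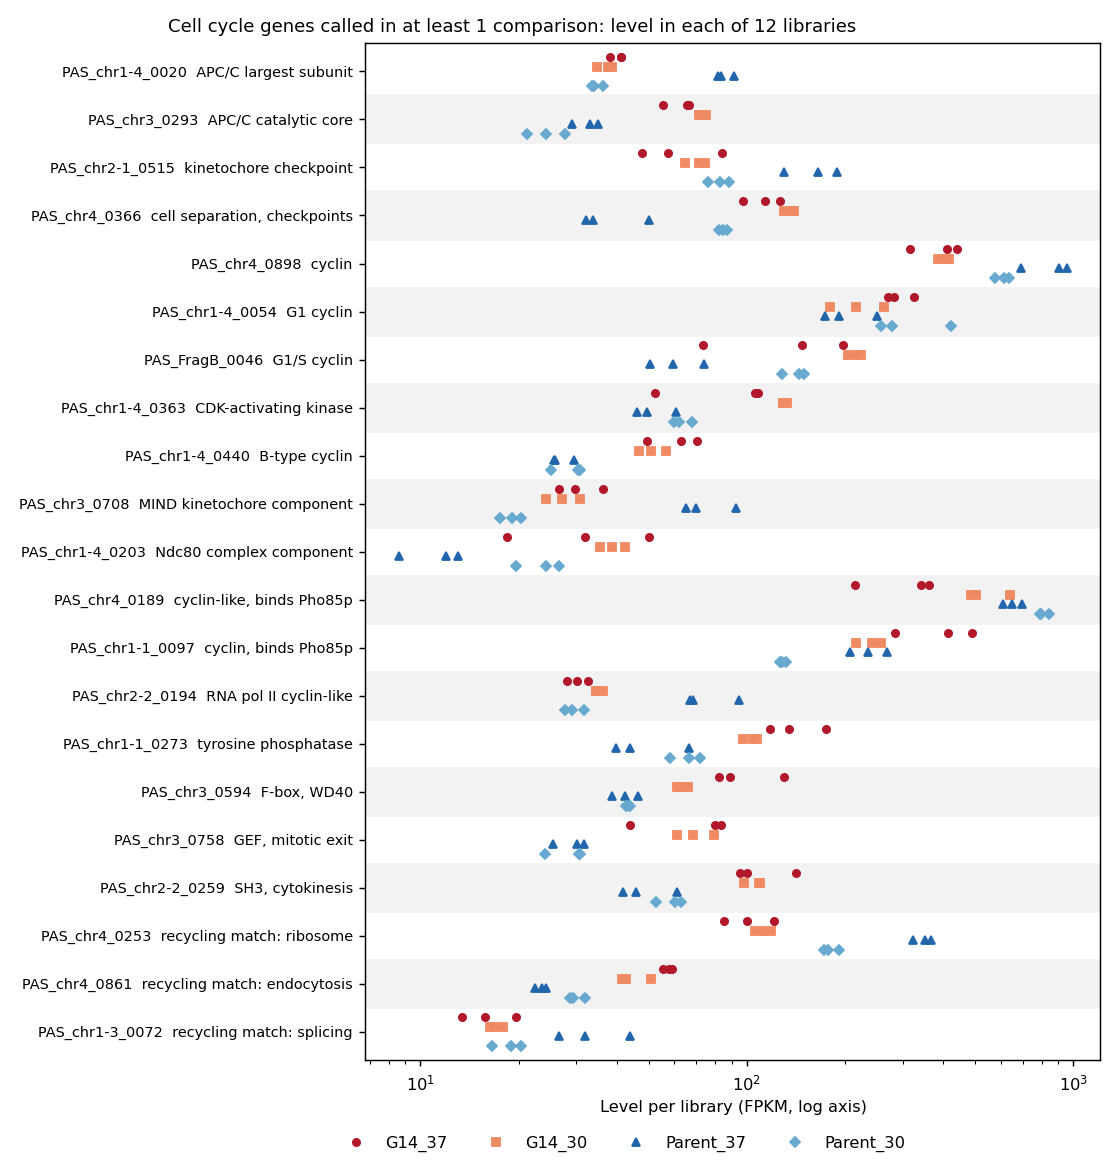
Level (FPKM, log axis) in each of the 12 libraries for the 21 genes called in at least 1 comparison, with 3 points per group. Parent_37 (blue triangles) stands apart to the right for the APC/C gene PAS_chr1-4_0020, the MIND gene PAS_chr3_0708 and PAS_chr2-2_0194, and to the left for PAS_chr4_0366 and the Ndc80 gene PAS_chr1-4_0203, which had 12, 8.59 and 13.1 FPKM there.

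The APC/C list held 6 subunit genes and the dynein heavy chain, which was matched through the word anaphase. PAS_chr1-4_0020 (chromosome 1, 1443917 to 1448479), the largest subunit and the most abundant of the list, had 41, 38.2 and 41.1 FPKM in G14_37, 37.5, 38.5 and 34.8 in G14_30, 81.8, 91.6 and 83.2 in Parent_37 and 33.6, 36.2 and 34.1 in Parent_30. The 3 Parent_37 libraries stood above the other 9, which lay between 33.6 and 41.1 FPKM. The log2 fold change was 1.28 (SE 0.08, adjusted p = 6.28e-07) for Parent_37 vs. Parent_30, -1.07 (SE 0.08, adjusted p = 9.45e-07) for G14_37 vs. Parent_37 and 0.12 (SE 0.08, adjusted p = 0.293) for G14_37 vs. G14_30. With libraries scaled to the same sum the call for G14_37 vs. Parent_37 was lost, at -0.79.

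PAS_chr3_0293 (chromosome 3, 581365 to 581784), the catalytic core subunit, had 55.4, 66.6 and 65.6 FPKM in G14_37, 74.8, 71.3 and 72.6 in G14_30, 29.1, 33 and 34.9 in Parent_37 and 21.1, 24.3 and 27.7 in Parent_30. Here the strains were apart at both temperatures, with 1.55 (SE 0.11, adjusted p = 4.68e-06) for G14_30 vs. Parent_30, 1.33 (SE 0.11, adjusted p = 8.55e-06) for G14_37 vs. Parent_30 and 0.93 (SE 0.11, adjusted p = 5.13e-05) for G14_37 vs. Parent_37, and both calls held under all 21 alternatives. The next gene on the same strand, PAS_chr3_0294, 150 bases downstream, was 1.03 for G14_30 vs. Parent_30, and its part in the value was not tested. The remaining 4 subunit genes were called in none of the comparisons, beside 35.6% of all transcripts called in at least 1. Among them was PAS_chr1-4_0197, whose 12 libraries lay between 17.3 and 23.2 FPKM.

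Of the 2 checkpoint genes, 1 was lower and 1 higher in the heated parent. PAS_chr4_0366 (chromosome 4, 738906 to 740537), described as needed for daughter cell separation, mitotic checkpoints and chromosome stability, had 97.2, 114 and 126 FPKM in G14_37, 130.4, 138 and 139.9 in G14_30, 32.1, 33.8 and 50.2 in Parent_37 and 84.4, 82.4 and 86.8 in Parent_30. All Parent_37 libraries lay below all others, with -1.14 (SE 0.15, adjusted p = 9.86e-05) for Parent_37 vs. Parent_30 and 1.54 (SE 0.15, adjusted p = 1.07e-05) for G14_37 vs. Parent_37, and both calls held under all 21 alternatives. PAS_chr2-1_0515 (chromosome 2, 947619 to 948575), a WD40 protein of the kinetochore checkpoint, which delays anaphase until chromosomes are attached, had 83.9, 47.8 and 57.4 FPKM in G14_37, 64.5, 74.7 and 71.2 in G14_30, 165, 130.2 and 188 in Parent_37 and 82.5, 88 and 76.3 in Parent_30. Its Parent_37 libraries lay above all others, with 0.95 (SE 0.19, adjusted p = 0.00139) for Parent_37 vs. Parent_30, just short of a call, and -1.36 (SE 0.19, adjusted p = 1.26e-04) for G14_37 vs. Parent_37.

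Of the 5 kinetochore genes, 1 was upregulated and 1 downregulated in the heated parent, and the other 3 did not pass the adjusted p there. Of all transcripts, 14% were upregulated and 7.56% downregulated in that comparison. PAS_chr3_0708 (chromosome 3, 1349367 to 1350191), a component of the MIND complex that joins the centromere to the microtubule-binding Ndc80 complex, had 26.7, 29.7 and 36.2 FPKM in G14_37, 24.3, 27.2 and 30.8 in G14_30, 65.3, 92.5 and 69.9 in Parent_37 and 19.1, 20.3 and 17.6 in Parent_30. Its log2 fold change of 1.93 (SE 0.15, adjusted p = 2.61e-06) for Parent_37 vs. Parent_30 was the largest of all 67 genes in that comparison, and it was -1.27 (SE 0.15, adjusted p = 4.31e-05) for G14_37 vs. Parent_37, a call lost at -0.98 with libraries scaled to the same sum. PAS_chr1-4_0203 (chromosome 1, 1774259 to 1776319), a component of the Ndc80 complex, moved the other way, with 18.4, 31.9 and 50.1 FPKM in G14_37, 35.6, 38.7 and 42.5 in G14_30, 12, 8.59 and 13.1 in Parent_37 and 19.7, 24.2 and 26.5 in Parent_30. It was -1.01 (SE 0.29, adjusted p = 0.0108) for Parent_37 vs. Parent_30 and 1.41 (SE 0.29, adjusted p = 0.00165) for G14_37 vs. Parent_37. The call in the parent was lost without replicate 2 of Parent_37 or replicate 2 or 3 of Parent_30, with a pseudocount of 2 and with libraries scaled to the same sum (lowest change -0.85).

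The second Ndc80 gene, PAS_chr1-3_0242, had -0.51 (SE 0.29, adjusted p = 0.154) for Parent_37 vs. Parent_30. The centromere histone gene PAS_chr2-1_0721, the most abundant kinetochore gene, had 100.4, 67 and 81.9 FPKM in G14_37, 67, 71.9 and 61.2 in G14_30, 48.5, 40 and 54.5 in Parent_37 and 34.4, 43.4 and 48.4 in Parent_30, with 0.96 (SE 0.17, adjusted p = 0.00101) for G14_37 vs. Parent_30 and 0.78 (SE 0.17, adjusted p = 0.00255) for G14_37 vs. Parent_37. For G14_30 vs. Parent_30, all 5 kinetochore genes had positive log2 fold changes, with 2 past the adjusted p and a median of 0.59. Of all transcripts, 14.9% were higher at the adjusted p in that comparison.

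The 3 cohesin genes, whose products hold sister chromatids together, were called in none of the comparisons, while 35.6% of all transcripts were called in at least 1. PAS_chr3_0540, the most abundant, had 46.2, 66.7 and 62.9 FPKM in G14_37, 54.8, 58.4 and 59.6 in G14_30, 37.9, 37.1 and 35.6 in Parent_37 and 34.1, 35.4 and 36.5 in Parent_30. It was higher in G14 than in the parent at both temperatures, at 0.69 (SE 0.12, adjusted p = 0.00164) for G14_30 vs. Parent_30 and 0.64 (SE 0.12, adjusted p = 0.00104) for G14_37 vs. Parent_37, with no overlap of libraries. The other two did not pass the adjusted p in any comparison, and one of them, PAS_chr2-2_0306, was among the 5 cell cycle genes with the smallest spread across group means.

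The 7 spindle genes, 5 of them kinesins, the motor proteins that position and separate the spindle, were likewise not called by limma on FPKM. Of all transcripts, 35.6% were called in at least 1 comparison. In the heated parent, 3 of 7 were higher and 0 lower at the adjusted p, beside 32.9% and 27% of all transcripts, with a median of 0.35. For G14_30 vs. Parent_30, 3 were higher and 0 lower, beside 14.9% and 13.7% of all transcripts, with a median of 0.36. PAS_chr2-1_0331, a spindle midzone protein that bundles microtubules and the most abundant of the list, had 43.1, 67.1 and 72.6 FPKM in G14_37, 54.4, 57.6 and 51.9 in G14_30, 29.6, 29.1 and 30.2 in Parent_37 and 33.2, 35.4 and 37 in Parent_30. Every G14 library lay above every parent library, and the log2 fold change for G14_37 vs. Parent_37 was 0.98 (SE 0.16, adjusted p = 3.36e-04), the nearest under the threshold, and limma-voom called it. In that comparison 2 of the 7 spindle genes were higher and 0 lower at the adjusted p, beside 29.4% and 28.1% of all transcripts. Of the 7, 3 were above 0, and the median was -0.15. The kinesin PAS_chr4_0160 of spindle assembly, singled out after its values had been seen, was higher with heat in the parent, at 0.85 (SE 0.12, adjusted p = 1.29e-04), and was 0.34 (SE 0.12, adjusted p = 0.0575) in G14.

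The 6 septin genes, whose products form the ring at the bud neck, were called in none of the comparisons, beside 35.6% of all transcripts called in at least 1. For G14_30 vs. Parent_30, 0 of 6 passed the adjusted p or an unadjusted p of 0.05, limma-voom called 0, and the median was -0.09, or 0.10 with libraries scaled to the same sum, where the median of all transcripts was 0.15. The 5 septins annotated as components of the ring differed among themselves in the heated parent. PAS_chr4_0548 had 89.6, 154 and 168 FPKM in G14_37, 146, 145 and 159 in G14_30, 82.3, 78.9 and 93.1 in Parent_37 and 138, 145 and 148 in Parent_30. PAS_chr4_0846 had 82.1, 135 and 148 FPKM in G14_37, 149, 149 and 149 in G14_30, 104, 93.3 and 104 in Parent_37 and 165, 158 and 165 in Parent_30. Both were lower in Parent_37 than in Parent_30, at -0.76 (SE 0.19, adjusted p = 0.00574) and -0.69 (SE 0.18, adjusted p = 0.00621), with no overlap of libraries. PAS_chr3_0397, the least abundant, was higher, with 22.3, 25.4 and 24.8 FPKM in G14_37, 22.4, 23.2 and 23.1 in G14_30, 32.1, 32.9 and 36.8 in Parent_37 and 21, 24.3 and 26.4 in Parent_30 and a log2 fold change of 0.49 (SE 0.10, adjusted p = 0.00174).

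PAS_chr4_0293, the most abundant septin, had 58.8, 121 and 136 FPKM in G14_37, 160.3, 162 and 179 in G14_30, 145, 118 and 144 in Parent_37 and 169, 168 and 180 in Parent_30. It was lower in G14_37 than in G14_30, at -0.74 (SE 0.25, adjusted p = 0.0495), with replicate 1 the lowest of all libraries. The same replicate was the lowest G14_37 library in all 6 septin genes. PAS_chr3_0967 and PAS_chr3_0977 were -0.43 (SE 0.22, adjusted p = 0.111) and -0.21 (SE 0.14, adjusted p = 0.228) for Parent_37 vs. Parent_30. Among the 3 other cytokinesis genes, the bud neck SH3 protein gene PAS_chr2-2_0259 (chromosome 2, 1906282 to 1908120) had 100.4, 95 and 141 FPKM in G14_37, 98.1, 109 and 109 in G14_30, 45.9, 41.9 and 60.9 in Parent_37 and 52.6, 60.3 and 62.7 in Parent_30. Every G14 library lay above every parent library, and the log2 fold change was 1.16 (SE 0.17, adjusted p = 1.63e-04) for G14_37 vs. Parent_37, a call lost without replicate 3 of G14_37. Its upstream neighbour, PAS_chr2-2_0258, on the same strand at 239 bases, had 1.31 in that comparison, and its part in the value was not tested. The type II myosin gene PAS_chr3_0823 of the contractile ring, singled out after its values had been seen, was 0.77 (SE 0.16, adjusted p = 0.00157) for Parent_37 vs. Parent_30 and 0.82 (SE 0.16, adjusted p = 0.00162) for G14_37 vs. Parent_30.

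The difference between the heat responses (G14 minus parent) was called for 6 of the 67 genes, among them a match through recycling. Of the 6, 1 was positive and 5 negative. This is 8.96% beside 15.4% of all transcripts (4.31% positive and 11.1% negative). The 5 negative ones were PAS_chr3_0708 at -1.77 (SE 0.22, adjusted p = 1.89e-04), PAS_chr2-2_0194 at -1.54 (SE 0.18, adjusted p = 1.40e-04), PAS_chr1-4_0020 at -1.16 (SE 0.11, adjusted p = 4.38e-05), PAS_chr2-1_0515 at -1.14 (SE 0.27, adjusted p = 0.00818) and the ribosome recycling factor PAS_chr4_0253. All of them were higher with heat in the parent at the adjusted p and were not called in G14. The positive one was the G1 cyclin PAS_chr1-4_0054, at 1.04 (SE 0.30, adjusted p = 0.02), a call lost without replicate 2 of G14_37, replicate 3 of G14_30, replicate 1 of Parent_37 or replicate 1 of Parent_30. PAS_chr2-1_0515 lost its call without replicate 2 of G14_37. The checkpoint gene PAS_chr4_0366 was short of the threshold, at 0.85 (SE 0.22, adjusted p = 0.0117). At the adjusted p alone, 8 genes differed upward and 10 downward, beside 14.6% and 20.7% of all transcripts, and these were 21 and 11 without replicate 1 of G14_37 and 8 and 14 without replicate 3. Of all transcripts, 20.2% and 25.7% differed upward and downward without replicate 1, and 16.8% and 21.8% without replicate 3. Across the 67 genes the 2 heat responses had a Pearson r of 0.385 and a Spearman rho of 0.419, beside 0.487 and 0.464 across all transcripts, and 0.182 and 0.239 without replicate 1 of G14_37. The responses come from separate libraries, genes are not independent replicates, and no test was made.

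**Figure D5:**
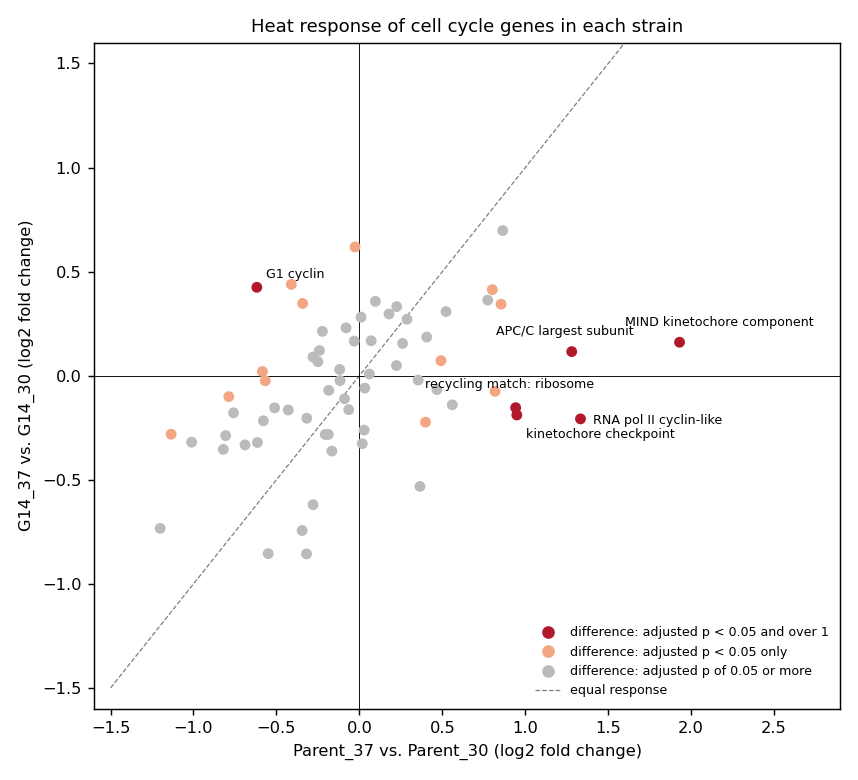
Log2 fold change of each of the 67 genes with heat in G14 (vertical axis, G14_37 vs. G14_30) against the same in the parent (horizontal axis, Parent_37 vs. Parent_30). The 6 red points are the genes whose difference was called, the orange points passed the adjusted p alone, and the dashed line marks an equal response. The MIND gene lies at 1.93 in the parent and 0.16 in G14.

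The 3 genes matched through recycling were all called for G14_37 vs. Parent_37. The mitochondrial ribosome recycling factor PAS_chr4_0253 had 121, 100 and 84.9 FPKM in G14_37, 119, 113 and 106 in G14_30, 323, 351 and 368 in Parent_37 and 191, 177 and 172 in Parent_30, with -1.77 (SE 0.12, adjusted p = 6.03e-07), the largest change of the 67 genes in that comparison. The adjacent gene PAS_chr4_0254 on the other strand begins at a gap of 0 bases and had -1.18 in the same comparison, and since the counting was not stated to use strand, reads of the 2 genes cannot be told apart at their border. The difference in heat response of PAS_chr4_0253 was -1.10 (SE 0.18, adjusted p = 9.79e-04), a call lost without replicate 3 of G14_37 and with libraries scaled to the same sum. The F-box gene PAS_chr4_0861 was 1.26 (SE 0.09, adjusted p = 8.72e-07) and the splicing factor gene PAS_chr1-3_0072 -1.01 (SE 0.18, adjusted p = 6.32e-04). The call of PAS_chr1-3_0072 was lost under 6 alternatives, among them leaving out replicate 1 or 2 of G14_37 or replicate 2 of Parent_37 and subtracting the lowest value of each library. Without these 3 genes, 8 of 64 were upregulated and 6 downregulated for G14_37 vs. Parent_37.

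In all, 21 of the 67 genes (31.3%) were called in at least 1 comparison, beside 35.6% of all transcripts, and 13 (19.4%) had an adjusted p under 0.05 in none, beside 16% of all transcripts. The distance between the highest and lowest group mean was over 1 log2 unit in 25 genes (37.3%), beside 38.7% of all transcripts, with medians of 0.79 and 0.82. The 5 flattest genes were the APC/C subunit PAS_chr1-4_0197, the dynein heavy chain PAS_chr2-1_0744, the cohesin subunit PAS_chr2-2_0306, PAS_chr3_0572 of nutritional control of the cell cycle and the mitotic exit network kinase PAS_chr3_1061. PAS_chr3_0572 had 52.6, 47.2 and 51.4 FPKM in G14_37, 50.8, 45.6 and 49.7 in G14_30, 52.5, 56.6 and 56.5 in Parent_37 and 42.1, 48.4 and 51.3 in Parent_30. By library, the median log2 level of the 67 genes relative to the mean of Parent_30 was 0.03, 0.23 and 0.45 in G14_37, 0.22, 0.27 and 0.23 in G14_30 and -0.12, -0.19 and 0.05 in Parent_37, so that G14_37 replicate 1 was the only G14 library within the range of Parent_37. Only 1 of the 67 genes, PAS_chr2-1_0744, overlaps another annotated gene.

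Genes of the same processes whose descriptions lack the chosen words formed a list of 56, of which 3 were matched by spelling only. The genes named from it below were not chosen by a rule set beforehand. For Parent_37 vs. Parent_30, 10 of the 56 were upregulated and 4 downregulated, beside 14% and 7.56% of all transcripts. For G14_37 vs. Parent_37, 4 (7.14%) were upregulated and 8 (14.3%) downregulated, where 7.42% and 14.3% of all transcripts were. For G14_37 vs. G14_30, 1 (1.79%) was upregulated and 0 downregulated, where 2.22% and 1.56% of all transcripts were. The 2 alpha-tubulin genes and the beta-tubulin gene, whose products build the microtubules of the spindle, were downregulated in the heated parent and upregulated in G14_37 vs. Parent_37. Beta-tubulin, PAS_chr4_0533, had 148, 393 and 399 FPKM in G14_37, 352, 317 and 364 in G14_30, 75.7, 62 and 106 in Parent_37 and 281, 273 and 289.5 in Parent_30. It was -1.81 (SE 0.33, adjusted p = 6.85e-04) for Parent_37 vs. Parent_30, 1.84 (SE 0.33, adjusted p = 6.65e-04) for G14_37 vs. Parent_37 and -0.27 (SE 0.33, adjusted p = 0.564) for G14_37 vs. G14_30. The alpha-tubulins PAS_chr2-1_0186 and PAS_chr4_0623 were -1.43 and -1.15 in the heated parent. Gamma-tubulin, PAS_chr4_0148, which nucleates microtubules at the spindle pole, was upregulated with heat in both strains, at 1.05 (SE 0.16, adjusted p = 0.00285) in G14 and 1.70 (SE 0.16, adjusted p = 6.22e-06) in the parent. It had 181, 135 and 127 FPKM in G14_37 and 62.9, 72.4 and 76 in G14_30. Replicate 1 of G14_37 was its highest G14 library, and whether the call in G14 holds without that library is not given here.

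Separase, PAS_chr1-4_0541, the protease that cuts cohesin at anaphase, had 15.7, 32.5 and 38 FPKM in G14_37, 27.5, 30.4 and 29.1 in G14_30, 86.8, 183 and 94 in Parent_37 and 16.3, 19.1 and 19.8 in Parent_30. All 3 Parent_37 libraries lay above the other 9, and it was 2.58 (SE 0.32, adjusted p = 5.24e-05) for Parent_37 vs. Parent_30 and -2.05 (SE 0.32, adjusted p = 2.76e-04) for G14_37 vs. Parent_37. PAS_chr2-1_0627, a condensin subunit, and PAS_chr1-1_0258, of the contractile actomyosin ring, were 1.30 and 1.39 in the heated parent and -1.81 and -2.47 for G14_37 vs. Parent_37. The other condensin genes of the list, PAS_chr4_0109, PAS_chr3_0265 and PAS_chr2-2_0416, differed less between the strains at 37 °C. Their means were 28.7, 24.8 and 20.3 FPKM in G14_37, 27.1, 25.2 and 24.7 in Parent_37 and 22.8, 15.4 and 18.5 in Parent_30. PAS_chr1-1_0238, described by its effect on chromosome stability, was the most changed of the list between strains, with 38, 45.4 and 40.7 FPKM in G14_37, 29.8, 34.5 and 37.5 in G14_30, 601, 671 and 802 in Parent_37 and 305, 294 and 261 in Parent_30. It was -4.03 (SE 0.13, adjusted p = 1.45e-09) for G14_37 vs. Parent_37 and -3.04 (SE 0.13, adjusted p = 8.91e-08) for G14_30 vs. Parent_30.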

How the data were processed

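The study sequenced RNA from 12 yeast cultures on an Illumina NovaSeq as paired-end reads (NEBNext Ultra RNA kit, strand use not stated). Per the submitters' processing notes, CASAVA, HISAT2 version 2.0.5 and featureCounts version 1.5.0-p3 were used, with gene models of K. phaffii. The deposited table gives FPKM computed by the authors for 5080 transcripts, 5040 annotated genes and 40 unannotated ones. All values were whole numbers of fragments after multiplying out gene length and a factor for each library (tolerance 0.05 fragments). Raw counts were not used here, so the test was made on a log scale, not with the study's DESeq2.

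FPKM was transformed to log2(FPKM + 1) and fitted with limma version 3.58.1 (trend, R version 4.3.3), with 4 group means and 8 residual degrees of freedom, and p-values were adjusted by Benjamini-Hochberg over 5080 transcripts. Transcripts needed a mean of 1 FPKM, which all had. The fit was run on simulated data with the same spread in all libraries and no library standing apart. Its behaviour with a library such as replicate 1 of G14_37 was therefore not tested. The depth was 13428637 to 22047040 fragments a library. FPKM fold changes understate changes of low genes.

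Named were all called genes (at most 8 a direction and comparison), the most abundant gene of each role list, every septin, B-type and G1 cyclin, the genes next to the fold threshold and the 5 flattest. Others are marked where they were singled out after their values had been seen. The members and lists were chosen with earlier results of these data known. No pairing of libraries by replicate number was fitted in the main test. Alternatives were pseudocounts of 2 and 0.1, no filter, a mean of 10 FPKM, equal FPKM sums, limma-voom on fragment numbers, the 2 compared groups alone, a replicate block and leaving out each library, and, added after the data had been seen, subtracting the lowest value of each library and leaving out the recycling matches. No identifier matched the gene table at hand, which is of another species' assembly, so symbols were not assigned.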

Additional observations from a re-analysis of the deposited data

Results flagged for a closer look

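The heat response differed between the strains for 6 of the 67 genes, among them a match through recycling. The test was a limma interaction term (G14 minus parent, log2, adjusted over all transcripts). The difference was -1.77 for the MIND kinetochore gene PAS_chr3_0708, -1.54 for the RNA polymerase II cyclin-like gene PAS_chr2-2_0194 and -1.16 for the largest APC/C subunit gene PAS_chr1-4_0020, and these 3 were called under all 20 alternatives. It was -1.14 for the kinetochore checkpoint gene PAS_chr2-1_0515, called under 19 of 20, and -1.10 for the ribosome recycling factor PAS_chr4_0253, called under 18 of 20. It was 1.04 for the G1 cyclin PAS_chr1-4_0054, called under 16 of 20. With 3 libraries a group, single libraries were not tested as outliers within their groups.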

How the results depend on the processing

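Of 39 calls of single genes, 23 held under every alternative, 16 were lost under at least 1 and 0 reversed. With every library scaled to the same FPKM sum, 8 genes were called for G14_30 vs. Parent_30 (3 otherwise) with a median of 0.43. For G14_37 vs. Parent_30, 18 were called (7 otherwise) with a median of 0.59, and the median for G14_37 vs. Parent_37 was 0.73. The medians of all transcripts on that scale were 0.15, 0.39 and 0.34 in the same order of comparisons. The shares of all transcripts called on it are not given here. Subtracting the lowest value of each library gave a median of -0.26 for Parent_37 vs. Parent_30, beside -0.05 for all transcripts. Leaving out 1 library at a time gave 0 to 2 called genes for G14_37 vs. G14_30 (2 without replicate 3 of G14_37) and medians of 0.23 to 0.30 for G14_30 vs. Parent_30 (0.30 without replicate 3 of Parent_30). The cause of these shifts was not tested.

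Same-numbered libraries of different groups had correlations of -0.22 to 0.67 in their deviations from group means, over 0.1 in 8 of 18 pairs. For G14_30 and Parent_30 they were 0.61, 0.01 and 0.67 for replicates 1, 2 and 3. Replicate 1 of either group with replicate 3 of the other had -0.61 and -0.63. Pairing by replicate number was thus not excluded for these groups. With the replicate number as a block, 0, 6, 3, 17, 7 and 6 genes were called in the 6 comparisons, the numbers obtained without the block. At the adjusted p alone the block gave 25 higher and 4 lower for G14_30 vs. Parent_30 (22 and 4 without it). For G14_37 vs. G14_30 it gave 7 and 5 (4 and 4 without it). Of all transcripts, 15.5% and 15% were then higher and lower in the first comparison, and 13.5% and 15.5% in the second. With 3 libraries a group, differences much below 1 log2 unit were often short of the adjusted p.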
